A study of Mus musculus with 6 samples.

Results

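The 48 h between 24 and 72 h after heme was added to adherent mouse bone marrow cells is described here gene by gene. The change of a gene is its log2 level on the heme 72 h array minus its level on the heme 24 h array. The change over the same interval in vehicle-treated cells stands beside it. A gene is read from 1 probe set: among those naming a single gene, the brightest on average across all 6 arrays. Of 19936 genes with such a probe set, 11516 were kept because their highest level over the 6 arrays reached 5.37, the median of the whole table. The 2 heme arrays are 2 of the 6 arrays in the study.

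Bone marrow of mice homozygous for the igfp allele of Spic was cultured with GM-CSF at 20 ng/ml and 10% fetal calf serum, and treatment began after 6 days. Heme was given at 80 µM (the labels print the unit as µm), and control cultures received a salt and ammonium hydroxide vehicle. Floating cells were removed at 6, 24 or 72 h, and RNA of the cells still attached was hybridised to 1 array for each treatment and time. All 6 groups carry the same Spic genotype, so no wild-type culture stands beside them, and the sources used here do not say what the igfp allele contains. Nothing in the labels says whether the cultures came from the same mouse. With 1 array a side there is no replicate check, no test was possible, and every difference below compares 2 libraries.

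Heme is the iron-holding group of hemoglobin. Macrophages that clear old or damaged red cells break it down with heme oxygenase (Hmox1) and send the iron out through ferroportin (Slc40a1), and Spic is a transcription factor of the splenic red pulp macrophages that do this work. GM-CSF cultures of bone marrow hold macrophages, dendritic cells and remaining granulocytes, and cells in such cultures keep maturing with time. The vehicle arrays show what changed over the same days without added heme.

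The labelled cell type was checked against marker genes: all 13 measured macrophage markers lay at or above 5.37 on at least 1 array, against 1 of 15 T, NK and B cell markers and 1 of 8 endothelial markers. Other lists reached that level too, with 14 of 16 neutrophil, 6 of 7 monocyte and 10 of 15 dendritic cell markers. So did 7 of 10 osteoclast and 7 of 11 fibroblast and stromal markers. The check therefore does not single out macrophages among these cell types. Array medians over all probe sets lay between 5.34 and 5.45. The heme 24 h array had the lowest median of the 6 over probe sets without a listed gene (4.83, the others 4.86 to 5.10) and over those naming several genes (6.13, the others 6.26 to 6.55), and the highest over those naming 1 gene (5.63, the others 5.57 to 5.61). Every heme change uses that array. Measured from the heme 6 h array instead, 77 of the 105 genes called higher and 86 of the 109 called lower again differed at least 2-fold in the same direction. Of all genes 387 (3.36%) were at least 2-fold higher and 307 (2.67%) lower from 6 to 72 h. Both changes use the heme 72 h array, so part of this agreement is built in. The sign from 6 to 72 h was the opposite for 4 of the 105 and 1 of the 109, none of them described below. Pairs of probe sets for 1 gene, read on the same arrays, gave heme changes that differed by a median of 0.18 over 689 genes, with 5 of them over 1, which is the only repeat measurement here and holds no biological spread.

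From 24 to 72 h with heme, 105 of the 11516 genes (0.912%) were at least 2-fold higher and 109 (0.947%) at least 2-fold lower. With vehicle, 59 genes (0.512%) were higher and 84 (0.729%) lower by as much. Genes past 2-fold in both cultures numbered 23 among the higher ones, which is 21.9% of the heme genes and 39.0% of the vehicle genes, and 47 among the lower ones, which is 43.1% and 56.0%. Across all 11516 genes the heme and vehicle changes, which share no array, correlated with Pearson's r of 0.359 and Spearman's rho of 0.176, a description over genes, which are not independent. The median change over all genes was 0.01 with heme and -0.04 with vehicle, and 90% of genes lay between -0.54 and 0.52 with heme. The change was positive in 50.9% of all genes with heme and in 42.1% with vehicle. A second quantile normalization moved the share of higher genes among those past 2-fold from 49.1% to 39.0% (85 higher and 133 lower). Selenop lay just inside the 2-fold line at 1.0005 and Vgll3 just outside at 0.998, and for the lower genes Trem1 at -1.001 and Itga1 at -0.999. At the level filter Magi1 was just inside, with a highest level of 5.37496, and Trpm2 just outside, at 5.37455.

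**Figure D1:**
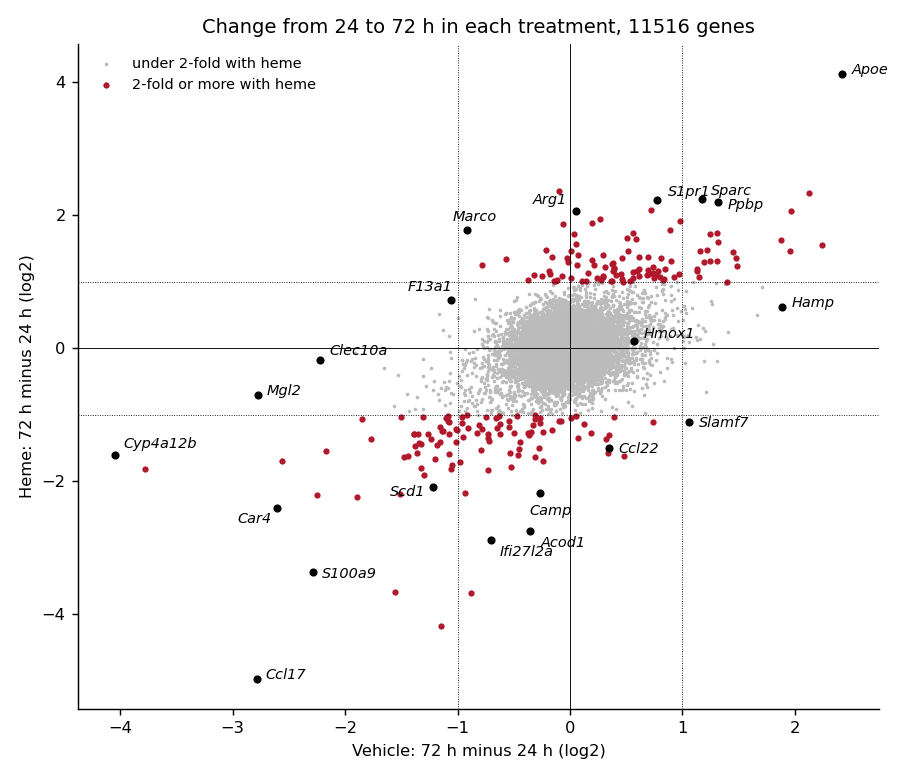
Each point is 1 of 11516 genes; the vertical axis is its heme change and the horizontal axis its vehicle change, both 72 h minus 24 h in log2, with dotted lines at 2-fold and red points past 2-fold with heme. Apoe (4.12 and 2.42) and Ccl17 (-4.97 and -2.79) lie far out in both cultures, Arg1 (2.06 and 0.05) and Acod1 (-2.74 and -0.35) with heme only, and Mgl2 (-0.71 and -2.78) mainly with vehicle.

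**Figure D2:**
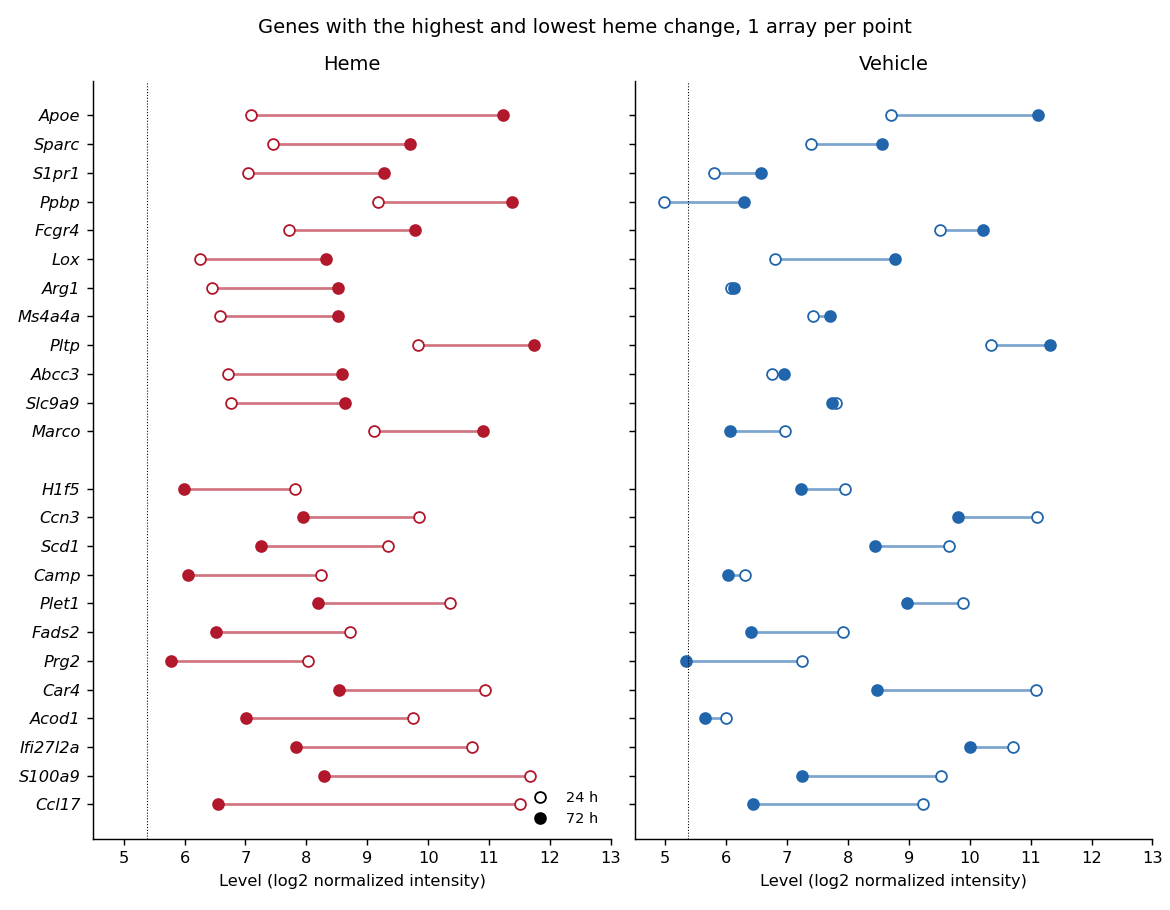
Levels (log2 normalized intensity) at 24 h (open) and 72 h (filled) of the 12 genes with the highest and the 12 with the lowest heme change among genes at or above 5.37 (dotted line) on both heme arrays, with heme on the left and vehicle on the right, 1 array per point. Apoe reached 11.22 with heme and 11.12 with vehicle at 72 h, whereas Marco stood at 10.90 with heme and 6.06 with vehicle.

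Of genes for lipid transport and for the uptake of dead cells, several were higher at 72 h than at 24 h with heme, and Apoe led all genes. Apoe, the lipid carrier that macrophages secrete, had levels at 6, 24 and 72 h of 6.60, 7.10 and 11.22 with heme and 6.96, 8.70 and 11.12 with vehicle. That is 17.4-fold from 24 to 72 h with heme. Heme minus vehicle was -1.61 at 24 h and 0.10 at 72 h. Pltp, which transfers phospholipid between lipoproteins, measured 8.75, 9.82 and 11.74 with heme and 9.21, 10.34 and 11.32 with vehicle, a change of 1.91 with heme and 0.98 with vehicle. Both belong to the list of LXR and PPARG lipid handling genes. Of its 17 kept members 2 were at least 2-fold higher with heme, against 0.912% of all genes. The list's median was 0.15 with heme and 0.30 with vehicle. The cholesterol exporter Abca1 came next in that list, at 0.78 with heme and 0.69 with vehicle. Most members of the list therefore lay near the median of all genes, far from its first 2 members.

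Receptors and bridging proteins that recognise apoptotic cells had a median change of 0.55 with heme and 0.17 with vehicle, with 14 of 19 kept members positive in each culture. At least 2-fold higher were 2 members with heme and 0 with vehicle, against 0.912% and 0.512% of all genes. Stab1, a scavenger receptor that binds phosphatidylserine, was first: it measured 5.79, 6.72 and 8.19 with heme and 5.64, 6.08 and 6.59 with vehicle, so the heme 72 h array stood apart from all others. Itgb5, an integrin chain that pairs with the alpha v chain, changed by 1.07 with heme and 0.56 with vehicle and was lower with heme than with vehicle at each time. The tyrosine kinase receptor Mertk changed by 0.89 with heme and 0.50 with vehicle, and its ligand Gas6 by 0.92 with heme and 0.02 with vehicle. C1qc and C1qa, subunits of the first complement component, which also coats dying cells, changed by 0.92 with heme and 0.04 with vehicle and by 0.74 with heme and -0.26 with vehicle in that order. Their heme 24 h levels, 10.04 and 9.13, were the lowest of all 6 arrays for both genes, and at 72 h heme minus vehicle was -0.10 and 0.10.

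The complement list held 12 kept genes. With heme 3 were at least 2-fold higher and 1 at least 2-fold lower, where 0.912% and 0.947% of all genes were. With vehicle 0 were past 2-fold, where 0.512% of all genes were higher and 0.729% lower. The list's median was 0.52 with heme and 0.06 with vehicle. The receptors for the complement fragments C3a and C5a were among the higher genes. C3ar1 measured 9.73, 9.29 and 10.67 with heme and 10.46, 10.74 and 10.58 with vehicle: the heme 24 h level was the lowest of the 6, and the heme 72 h level lay among the vehicle levels. From 6 to 72 h with heme C3ar1 was therefore less than 2-fold higher. C5ar1 changed by 1.36 with heme and 0.46 with vehicle. Serping1, the inhibitor of the first component, was under 5.37 at 24 h, so its level is at least 1.65-fold higher at 72 h with heme. Cfb, the protease factor of the alternative pathway, went the other way: it measured 10.02, 11.35 and 9.77 with heme and 8.92, 9.02 and 9.36 with vehicle, with a heme peak at 24 h.

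A second set of genes was at least 2-fold higher with heme while vehicle changed by less than 2-fold. Marco, a scavenger receptor for particles and bacteria, measured 8.88, 9.12 and 10.90 with heme and 7.96, 6.97 and 6.06 with vehicle. Heme levels were the higher at each time, and the gap widened from 2.15 at 24 h to 4.85 at 72 h. Arg1, which splits arginine into ornithine and urea, measured 5.42, 6.45 and 8.52 with heme and 6.19, 6.08 and 6.13 with vehicle. Its heme 72 h level was the 1 high value, and the other arrays lay between 5.42 and 6.45. Cx3cr1, the fractalkine receptor of monocytes and resident macrophages, measured 5.71, 6.05 and 7.62 with heme and 5.60, 5.82 and 5.88 with vehicle, and again 1 array stood out. S1pr1, a receptor that guides cells along sphingosine 1-phosphate, measured 5.50, 7.03 and 9.27 with heme and 6.21, 5.79 and 6.57 with vehicle, and was already higher with heme at 24 h.

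Ms4a4a, a membrane protein of macrophages, measured 5.91, 6.58 and 8.53 with heme and 6.85, 7.43 and 7.70 with vehicle, so heme levels were below vehicle until 24 h and above at 72 h. The endosomal sodium and proton exchanger Slc9a9 had the same order, at 6.03, 6.77 and 8.63 with heme and 6.71, 7.81 and 7.74 with vehicle. Abcc3, an exporter of conjugated compounds, changed by 1.88 with heme and 0.19 with vehicle and ended 1.64 above vehicle. Fcgr4, an activating receptor for IgG, changed by 2.07 with heme and 0.72 with vehicle. It stayed below vehicle at each time, with 6.97, 7.71 and 9.78 against 7.999, 9.50 and 10.22. Scavenger and pattern recognition receptors made a list of 28. With heme 4 were at least 2-fold higher and 1 lower, where 0.912% and 0.947% of all genes were. With vehicle 2 and 0 were, where 0.512% and 0.729% of all genes were. The list's median was 0.19 with heme and 0.12 with vehicle. Tlr1, which pairs with Tlr2 to sense bacterial lipoprotein, was under 5.37 at 24 h and is at least 2.61-fold higher at 72 h with heme. Its vehicle level was higher at 72 h as well, at 6.28 after 5.13 at 24 h, against 6.76 with heme at 72 h. Mrc1, the mannose receptor, changed by 0.75 with heme and -0.15 with vehicle.

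**Figure D3:**
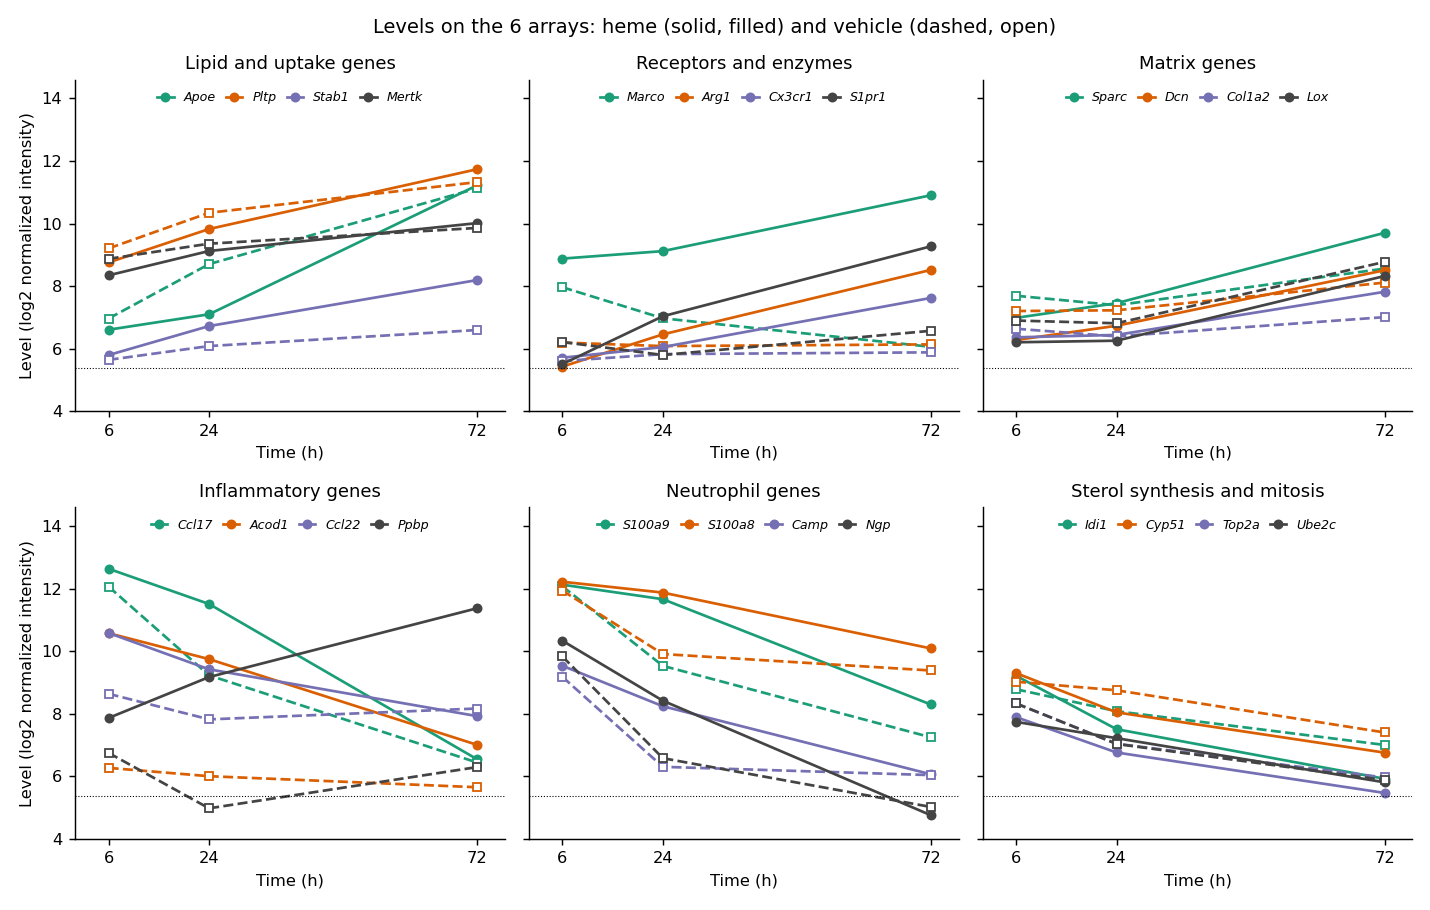
Levels (log2 normalized intensity) against time in h for 4 genes in each of 6 groups, 1 array per point, with heme as solid lines and filled points and vehicle as dashed lines and open points; the dotted line is 5.37, below which a level is not shown above background. Neutrophil genes were lower at 24 h with vehicle (S100a9 9.53) than with heme (S100a9 11.66), while Acod1 stood at 6.27 with vehicle and 10.58 with heme at 6 h.

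Chemokines split with heme. Ppbp, a CXC chemokine of platelets and myeloid cells, measured 7.87, 9.17 and 11.37 with heme and 6.75, 4.97 and 6.29 with vehicle, and was higher with heme at each time. Its relative Pf4 measured 10.42, 11.65 and 12.41 with heme and 9.44, 9.39 and 10.01 with vehicle, with a change of 0.76 with heme. Cxcl5, which attracts neutrophils, was under 5.37 on all arrays except heme at 72 h, where it reached 6.67, at least 2.46-fold higher than at 24 h. Pf4 and Ppbp are also platelet genes. Of 6 measured megakaryocyte and platelet markers 5 were kept, and the summed level of the list was 10.94, 12.02 and 13.04 at 6, 24 and 72 h with heme and 10.25, 10.22 and 10.66 with vehicle, a sum that Pf4 and Ppbp dominate. The integrin chain Itga2b, a defining marker, lay at 5.19, 5.35 and 5.56 with heme, close to 5.37, and 5.25, 5.21 and 5.08 with vehicle. Vwf, also a gene of endothelium, went the other way, with 8.23, 8.59 and 8.63 with vehicle and 7.91, 7.94 and 7.55 with heme, and Gp9 and Gp5 were under 5.37 with heme at 24 and 72 h. The part of such cells in the result was not tested.

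Matrix and stromal genes were higher at 72 h in both cultures. Of 23 kept genes in the list, 11 were at least 2-fold higher with heme and 7 with vehicle, against 0.912% and 0.512% of all genes, 0 were lower in either, and the median was 0.61 with heme and 0.60 with vehicle. Sparc, a collagen-binding protein, measured 6.98, 7.45 and 9.70 with heme and 7.69, 7.39 and 8.56 with vehicle. Lox, which cross-links collagen, measured 6.20, 6.25 and 8.32 with heme and 6.90, 6.81 and 8.77 with vehicle, so vehicle was the higher of the 2 cultures. The proteoglycan decorin (Dcn) measured 6.27, 6.73 and 8.50 with heme and 7.20, 7.22 and 8.11 with vehicle. Col1a2, a chain of type I collagen, changed by 1.38 with heme and 0.61 with vehicle, and Acta2, smooth muscle actin, by 1.37 with heme and 0.81 with vehicle. Postn, a matrix protein of fibroblasts, was under 5.37 at 24 h and at least 2.58-fold higher at 72 h with heme. With vehicle it was also under 5.37 at 24 h (5.04), and at 72 h it stood at 7.16, against 6.74 with heme.

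Fibroblast and stromal markers moved with these genes, and several are the same genes. The summed level of the 11 measured markers was 8.95, 9.32 and 10.46 at 6, 24 and 72 h with heme and 9.30, 9.17 and 9.91 with vehicle, and 7 of the 11 reached 5.37 on some array. Of the 11, Pdgfra, Pdgfrb, Lum and Cxcl12 stayed under 5.37 on every array. The part of fibroblasts in the result was not tested. Among the extracellular proteases and inhibitors 3 of 20 were at least 2-fold higher in each culture, against 0.912% of all genes with heme and 0.512% with vehicle. The metalloprotease inhibitors Timp1 and Timp3 changed by 1.23 with heme and 1.48 with vehicle and by 1.46 with heme and 1.95 with vehicle. Of the growth factors, Igf1 was higher with heme at 1.21 (0.39 with vehicle), and the activin subunit Inhba was lower at -1.58 (-0.53 with vehicle).

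Neutrophil genes were lower at 72 h than at 24 h with heme. Of 14 kept neutrophil markers, 7 were at least 2-fold lower and 1 higher with heme, where 0.947% and 0.912% of all genes were. With vehicle 3 were lower and 0 higher, where 0.729% and 0.512% of all genes were. The median was -0.98 with heme and -0.15 with vehicle. With members under 5.37 set to that level the heme median was -0.46. S100a9, a subunit of calprotectin, measured 12.13, 11.66 and 8.30 with heme and 12.08, 9.53 and 7.25 with vehicle, and its partner S100a8, named after its values were seen, 12.22, 11.88 and 10.09 with heme and 11.94, 9.91 and 9.38 with vehicle. Ngp, a granule protein, measured 10.34, 8.42 and 4.75 with heme and 9.83, 6.58 and 5.02 with vehicle, at least 8.24-fold lower at 72 h with heme. Camp, the cathelicidin of granules, measured 9.54, 8.24 and 6.06 with heme and 9.18, 6.30 and 6.04 with vehicle. In these 4 genes the 2 cultures were close at 6 h, heme was the higher by 1.84 to 2.13 at 24 h, and in the 3 of them above 5.37 on both 72 h arrays heme minus vehicle lay between 0.03 and 1.05 at 72 h.

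The stefins, inhibitors of cysteine proteases found in neutrophils, followed the same order. Stfa3 measured 8.55, 8.45 and 4.27 with heme and 8.51, 5.60 and 4.45 with vehicle, and Stfa2 8.92, 8.04 and 4.36 with heme and 8.67, 4.87 and 3.995 with vehicle; both were under 5.37 at 72 h in both cultures, so with heme they are at least 8.41-fold and 6.35-fold lower. These genes are near-identical copies of one another, and their probe sets may read each other's RNA. Lcn2, a siderophore-binding granule protein that macrophages also make, measured 9.20, 9.32 and 7.95 with heme and 9.20, 6.70 and 5.46 with vehicle and stayed higher with heme. Csf3r, the G-CSF receptor, was the member at least 2-fold higher, at 1.31 with heme and 0.89 with vehicle. The collagenase gene Mmp8, named after its values were seen, was also positive with heme, at 10.37, 11.25 and 11.78 (11.03, 11.53 and 11.35 with vehicle), and Mmp9, a gelatinase gene, was under 5.37 until 24 h and at 5.97 at 72 h with heme. Fewer neutrophils on the plate and less of each RNA per cell cannot be told apart in RNA of whole cultures. The neutrophil list's summed level was 13.79, 13.49 and 12.57 with heme and 13.70, 12.37 and 11.98 with vehicle. Prg2, the major basic protein of eosinophils, measured 8.07, 8.03 and 5.78 with heme and 9.22, 7.24 and 5.35 with vehicle, and all 4 kept eosinophil markers were negative with heme.

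Several inflammatory genes that stood above vehicle at 24 h in the heme culture were lower at 72 h with heme. In the list of inflammatory cytokines and chemokines 21 of 30 kept genes were negative with heme and 12 of 30 with vehicle, and the median was -0.23 with heme and 0.16 with vehicle. At least 2-fold lower were 6 with heme and 2 with vehicle, where 0.947% and 0.729% of all genes were. At least 2-fold higher were 3 and 5, where 0.912% and 0.512% of all genes were. Ccl17, a chemokine for T cells that carry CCR4, had the lowest heme change of all genes: it measured 12.64, 11.51 and 6.54 with heme and 12.07, 9.23 and 6.44 with vehicle, and both cultures ended at nearly the same level. Ccl22, a ligand of the same receptor, measured 10.58, 9.42 and 7.92 with heme and 8.64, 7.82 and 8.17 with vehicle. Acod1, which makes the metabolite itaconate, measured 10.58, 9.75 and 7.01 with heme and 6.27, 6.00 and 5.65 with vehicle. Its heme levels were above vehicle at each time, by 4.31, 3.74 and 1.36. Clec4e, a receptor for mycobacterial glycolipid and for dying cells, measured 11.07, 10.77 and 9.41 with heme and 8.10, 7.66 and 7.99 with vehicle and likewise stayed above vehicle.

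Heme was the higher culture for Ccl5, a T cell chemokine, at each time (10.20, 10.40 and 9.75 against 7.71, 7.17 and 8.38), but the heme change was -0.66 and the vehicle change 1.21. Slamf7, a receptor of activated leukocytes, crossed over: it measured 7.57, 7.19 and 6.09 with heme and 6.67, 7.16 and 8.22 with vehicle. The NF-kB subunits and feedback regulators had 0 of 20 kept genes past 2-fold in either culture, yet 16 of 20 were negative with heme and 13 of 20 positive with vehicle. Of all genes 50.9% were positive with heme and 42.1% with vehicle. The list's median was -0.25 with heme and 0.10 with vehicle. Traf1, an adaptor induced by NF-kB, changed by -0.80 with heme and -0.03 with vehicle, Nfkb2, the p100 precursor, by -0.63 with heme and 0.43 with vehicle, and Nfkbie, an inhibitor of NF-kB, by -0.60 with heme and 0.64 with vehicle. All 3 were higher with heme than with vehicle at 24 h, by 1.46, 1.24 and 2.34, and by less at 72 h (0.69, 0.18 and 1.10).

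Ifi27l2a, which interferon induces, measured 10.83, 10.71 and 7.83 with heme and 10.98, 10.71 and 10.00 with vehicle, so the heme 72 h array was the low one. The other interferon-stimulated genes did not reach that size: 0 of 24 kept members were past 2-fold in either culture, and the median was -0.27 with heme and -0.07 with vehicle. With members under 5.37 set to that level the heme median was -0.12. Ifit1, which binds foreign RNA, was under 5.37 on all 4 arrays from 24 h on, and the chemokine Cxcl10 on 3 of them, so no change is given for these genes. Genes of alternative activation diverged. Arg1 is described above. Retnla was lower at 72 h in both cultures, and measured 8.34, 6.03 and 3.82 with heme and 7.96, 7.59 and 5.34 with vehicle. Both 72 h levels were under 5.37, so it was at least 1.58-fold lower with heme, and the log2 bound with vehicle was -2.22. The lectins Mgl2 and Clec10a were lower mainly with vehicle. Mgl2 measured 10.35, 9.26 and 8.56 with heme and 10.43, 9.27 and 6.49 with vehicle. Clec10a measured 7.53, 7.78 and 7.60 with heme and 7.92, 7.91 and 5.69 with vehicle. At 24 h heme minus vehicle was under 0.01 in size for Mgl2 and -0.13 for Clec10a, and at 72 h heme was higher by 2.07 and 1.92. The list's median was -0.21 with heme and -0.13 with vehicle. Of 17 genes, 2 were at least 2-fold higher and 3 lower with heme, where 0.912% and 0.947% of all genes were. With vehicle 0 and 4 were, where 0.512% and 0.729% of all genes were.

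Dendritic cell markers had a median of -0.42 with heme and 0.21 with vehicle. In 9 of 10 kept genes the heme change was below the vehicle change, though 4 of the 10 were positive with heme. Of all genes 55.4% had a heme change above the vehicle change. The heme median of the markers was -0.19 with members under 5.37 set to that level, -0.08 with no level filter and -0.71 with the filter at the 75th percentile. The summed level of that list, which Ccl17 and Ccl22 are part of, was 13.88, 13.38 and 12.72 with heme and 13.38, 12.79 and 12.62 with vehicle. The chemokine receptor Ccr7 changed by -0.97 with heme and 0.09 with vehicle. MHC class II genes moved little, with a median of -0.16 with heme and -0.11 with vehicle. In each culture 1 of 13 was at least 2-fold lower, against 0.947% of all genes with heme and 0.729% with vehicle. That gene was the H2-O chain H2-Oa, at -1.21 with heme and -1.01 with vehicle. The macrophage markers had a median of 0.34 with heme and 0.11 with vehicle, with 11 of 13 positive and 0 past 2-fold with heme. Adgre1, the F4/80 antigen, measured 9.38, 9.77 and 10.48 with heme and 9.55, 9.73 and 9.89 with vehicle. Csf1r, the M-CSF receptor, changed by 0.15 with heme and 0.24 with vehicle, and the integrin chain Itgam by 0.28 with heme and 0.45 with vehicle. The part of a changed share of dendritic cells or macrophages in these results was not tested.

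All 19 kept genes of cholesterol synthesis had negative changes in both cultures, the least of them the reductase gene Dhcr7 with vehicle at -0.003. With heme 8 of the 19 were at least 2-fold lower and with vehicle 6, against 0.947% and 0.729% of all genes, and the median was -0.91 with heme and -0.84 with vehicle. Idi1, which isomerises isopentenyl diphosphate, measured 9.21, 7.51 and 5.92 with heme and 8.78, 8.08 and 7.002 with vehicle. Fdps, which makes farnesyl diphosphate, measured 9.33, 8.20 and 6.74 with heme and 9.31, 8.35 and 6.97 with vehicle. Cyp51, which demethylates lanosterol, measured 9.30, 8.04 and 6.76 with heme and 9.02, 8.75 and 7.40 with vehicle. Mvd, the mevalonate diphosphate decarboxylase, changed by -1.19 with heme and -0.65 with vehicle. In Idi1, Fdps and Cyp51 the 6 h levels were the highest and the 72 h levels the lowest in each culture. The desaturases of fatty acids were lower too: Fads2 measured 9.81, 8.72 and 6.52 with heme and 9.22, 7.92 and 6.40 with vehicle, Scd1 9.68, 9.34 and 7.25 with heme and 10.14, 9.65 and 8.44 with vehicle, and Scd2 changed by -1.23 with heme and -1.01 with vehicle. These were the 3 of 12 fatty acid synthesis genes past 2-fold, in each culture. Of all genes 0.947% were lower by as much with heme and 0.729% with vehicle. The list's median was -0.56 with heme and -0.33 with vehicle.

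Promoter sequences are shown for sterol genes of this group because its members moved together. The RefSeq table (build GRCm38.p6) held windows of 300 bases, 250 before a gene's start and 50 after it, for 15 of these genes, 18 windows in all. The motif CCAAT, searched on both strands (ATTGG on the other), was in 15 of the 18 (83.3%) and in 37.4% of all 32851 promoter windows of the table, which cover 27025 genes. A share as high was found for endoplasmic reticulum chaperones, with 17 of 20 windows (85.0%) and a median heme change of 0.07. The windows printed are the 250 bases before the start of Idi1 at chr13:8885356-8885605 (plus strand), Cyp51 at chr5:4104698-4104947 (minus strand) and Hmgcs1 at chr13:119690101-119690350 (plus strand), 5′ to 3′ on the gene's strand, with matches on either strand in capitals. A match is a description of letters and no measure of binding.
Idi1: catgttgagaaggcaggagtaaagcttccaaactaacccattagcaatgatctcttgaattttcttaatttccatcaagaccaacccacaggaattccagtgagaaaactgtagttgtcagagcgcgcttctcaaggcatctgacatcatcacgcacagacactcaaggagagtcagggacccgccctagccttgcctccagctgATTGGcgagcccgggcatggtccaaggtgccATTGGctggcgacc
Cyp51: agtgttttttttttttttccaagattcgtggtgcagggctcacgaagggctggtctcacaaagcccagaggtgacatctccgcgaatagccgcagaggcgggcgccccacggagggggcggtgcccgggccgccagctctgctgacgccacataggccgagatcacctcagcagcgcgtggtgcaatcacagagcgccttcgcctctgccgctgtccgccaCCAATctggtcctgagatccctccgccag
Hmgcs1: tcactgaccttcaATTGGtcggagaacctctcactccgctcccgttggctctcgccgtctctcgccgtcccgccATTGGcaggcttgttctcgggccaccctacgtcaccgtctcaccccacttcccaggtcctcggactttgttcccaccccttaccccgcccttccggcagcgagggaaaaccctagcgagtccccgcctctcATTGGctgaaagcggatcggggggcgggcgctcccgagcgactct

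Hmgcs1 itself, which makes the hydroxymethylglutaryl-CoA from which sterols derive, changed by -0.84 with heme and -0.83 with vehicle, under 2-fold in both. It was chosen for printing after its values were seen.

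Genes of mitosis were lower at 72 h in both cultures, by similar amounts. Of 29 kept genes all 29 were negative with heme and 28 with vehicle, 6 and 10 were at least 2-fold lower, against 0.947% and 0.729% of all genes, and the median was -0.64 with heme and -0.78 with vehicle. Top2a, the topoisomerase that untangles chromosomes, measured 7.89, 6.76 and 5.47 with heme and 8.33, 7.04 and 5.96 with vehicle. Ube2c, a ubiquitin-conjugating enzyme of the anaphase-promoting complex, measured 7.74, 7.22 and 5.81 with heme and 8.33, 7.03 and 5.88 with vehicle. Ccna2, cyclin A2, and Birc5, survivin, were under 5.37 with heme at 72 h and at least 2.98-fold and 2.55-fold lower. DNA replication genes changed less: 0 of 31 were past 2-fold in either culture, 25 were negative in each, and the median was -0.22 with heme and -0.25 with vehicle. Rrm2, a subunit of ribonucleotide reductase, measured 6.37, 6.01 and 5.04 with heme and 7.25, 6.08 and 5.38 with vehicle, with the heme 72 h level under 5.37. The linker histone gene H1f5 measured 8.06, 7.82 and 5.99 with heme and 8.62, 7.95 and 7.22 with vehicle.

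Promoters of 3 mitosis genes are printed because the list shares short elements. TTTGAA, searched with its reverse complement, the letters of the cell cycle homology region, was in 20 of 26 windows of the list (76.9%) and in 17.9% of all windows. CCAAT was in 19 of the 26 (73.1%). The E2F letters GCGGGAA, on either strand, were in 0 of 26 mitosis windows, in 13 of 30 DNA replication windows (43.3%) and in 4.60% of all windows. Genes at least 2-fold lower with heme had TTTGAA in 21.8% of their 101 windows, and those at least 2-fold higher in 18.5% of 92, close to all promoters. The windows are Top2a at chr11:99024190-99024439 (minus strand), Ube2c at chr2:164769679-164769928 (plus strand) and Cdc20, the activator of the anaphase-promoting complex, at chr4:118437344-118437593 (minus strand). Matches to both motifs are in capitals on either strand, and in Ube2c a CCAAT overlaps its reverse complement. Cdc20, at 5.88, 5.95 and 5.32 with heme and 6.63, 5.88 and 5.34 with vehicle, was chosen for printing after its values were seen.
Top2a: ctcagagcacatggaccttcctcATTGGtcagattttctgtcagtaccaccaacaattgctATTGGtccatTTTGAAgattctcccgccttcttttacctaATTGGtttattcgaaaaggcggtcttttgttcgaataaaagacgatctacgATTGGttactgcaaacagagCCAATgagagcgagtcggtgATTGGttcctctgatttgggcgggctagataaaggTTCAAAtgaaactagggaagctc
Ube2c: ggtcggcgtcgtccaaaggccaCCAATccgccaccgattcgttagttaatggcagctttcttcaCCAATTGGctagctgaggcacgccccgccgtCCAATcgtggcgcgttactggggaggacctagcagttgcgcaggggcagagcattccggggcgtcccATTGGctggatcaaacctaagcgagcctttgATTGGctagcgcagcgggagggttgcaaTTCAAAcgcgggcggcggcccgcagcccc
Cdc20: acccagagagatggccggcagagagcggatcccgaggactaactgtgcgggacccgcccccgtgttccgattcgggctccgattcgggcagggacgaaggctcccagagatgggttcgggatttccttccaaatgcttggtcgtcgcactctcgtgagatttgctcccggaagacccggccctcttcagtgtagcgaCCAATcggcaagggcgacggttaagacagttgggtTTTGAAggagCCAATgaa

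Genes of heme and iron handling, as a list, changed little after 24 h, with a median of 0.10 with heme and 0.10 with vehicle over 36 kept genes. In each culture 1 gene was past 2-fold in each direction. Of all genes 0.912% were higher and 0.947% lower by as much with heme, and 0.512% and 0.729% with vehicle. Hmox1, heme oxygenase, measured 13.30, 13.18 and 13.29 with heme and 10.54, 10.44 and 11.01 with vehicle, so the heme levels were the 3 high ones at all times. Slc40a1, ferroportin, measured 9.61, 10.35 and 11.08 with heme and 6.79, 8.51 and 8.82 with vehicle, higher with heme at each time. Spic measured 9.53, 10.49 and 10.17 with heme and 5.76, 6.09 and 6.69 with vehicle, a change of -0.32 with heme and 0.60 with vehicle. Treml4, a receptor of red pulp macrophages, measured 7.54, 9.43 and 9.78 with heme and 5.36, 5.13 and 5.71 with vehicle. Trf, the iron carrier transferrin, was the member past 2-fold higher with heme, at 10.72, 10.62 and 11.89 with heme and 11.05, 11.39 and 11.76 with vehicle; its heme 24 h level was below vehicle and its 72 h level near it. Hamp, the hormone hepcidin, reached 7.19 with vehicle and 5.48 with heme at 72 h. The red pulp adhesion receptor Vcam1 was under 5.37 on every array, and the hemoglobin receptor Cd163 reached it only with heme at 72 h (5.62), so these defining markers of red pulp macrophages are at or near background. The red pulp list had a median of 0.39 with heme and 0.36 with vehicle over 11 kept genes.

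The antioxidant genes under NRF2 and BACH1 had a median of -0.02 with heme and 0.14 with vehicle, with 0 of 29 past 2-fold, and the sign of the heme median depended on the scaling of the arrays (-0.07 to 0.02). Gsta3, a glutathione transferase, was the member with the largest heme change, 0.97, and was under 5.37 with vehicle at both times. The cystine carrier Slc7a11 changed by -0.80 with heme and -0.28 with vehicle. The stress genes under ATF4 had a median of -0.23 with heme and -0.10 with vehicle. Of 25 kept, 1 was at least 2-fold lower with heme, against 0.947% of all genes. It was Phgdh, the first enzyme of serine synthesis, at 6.54, 6.73 and 5.42 with heme and 7.21, 6.29 and 6.64 with vehicle.

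Several lists had small medians of opposite sign in the 2 cultures, with 0 members past 2-fold in either. Ribosome biogenesis genes had 0.30 with heme and -0.13 with vehicle, with 19 of 24 positive with heme and 16 of 24 negative with vehicle. Of all genes 50.9% were positive with heme and 42.1% with vehicle, so most genes of any kind were negative with vehicle. The nucleolar protein Gnl3 changed by 0.65 with heme and -0.13 with vehicle. Proteasome genes had 0.13 with heme and -0.20 with vehicle, with 21 of 31 positive with heme and 28 of 31 negative with vehicle; the regulatory particle subunit Psmd8 had the largest change, against the sign of the list, at -0.68 with heme and 0.05 with vehicle, and Psmd1 the next, at 0.55 with heme and -0.003 with vehicle. For endoplasmic reticulum chaperones the medians were 0.07 with heme and -0.15 with vehicle. These signs were the same under each of 4 other scalings of the arrays. Heat shock proteins had 0.24 with heme and -0.04 with vehicle, and there the sign with vehicle depended on the scaling (-0.09 to 0.03). Oxidative phosphorylation genes were negative in both, -0.28 with heme and -0.21 with vehicle, with 34 of 36 negative with heme and 32 with vehicle.

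**Figure D4:**
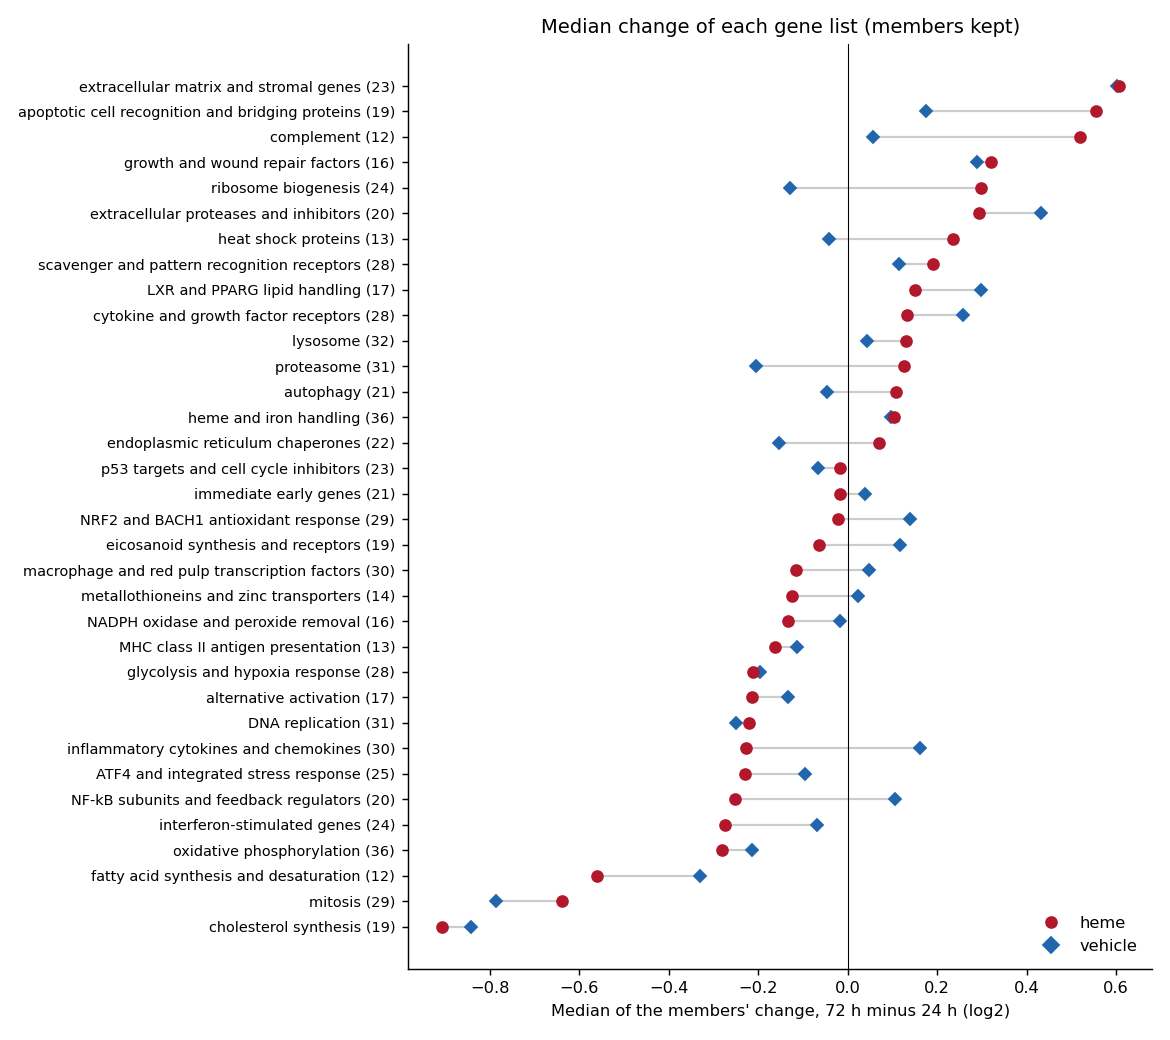
Median change from 24 to 72 h (log2) of the kept members of 34 pathway gene lists (cell type markers are not plotted), heme as red circles and vehicle as blue diamonds, with the number of kept members in parentheses. Cholesterol synthesis (-0.91 and -0.84) and mitosis (-0.64 and -0.78) are lowest in both cultures, matrix genes (0.61 and 0.60) are highest in both, and apoptotic cell recognition, complement, inflammatory and NF-kB lists lie apart between heme and vehicle.

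The heme change exceeded the vehicle change by at least 2-fold in 92 genes (0.799%) and fell short of it by as much in 85 (0.738%). After a second quantile normalization the counts were 70 and 109, and after cyclic loess 71 and 107, so the share of higher genes among them was 39.1% and 39.9% against 52.0%. Marco had the largest positive difference, 2.70, followed by Mgl2 at 2.07, Clec10a at 2.04, Arg1 at 2.01 and Slc9a9 at 1.93, among genes at or above 5.37 on all 4 arrays, small RNAs left out. Rcn3, a calcium-binding protein of the secretory pathway, measured 5.94, 6.00 and 7.35 with heme and 6.96, 7.42 and 6.85 with vehicle, with opposite signs in the cultures. F13a1, a subunit of coagulation factor XIII, measured 7.14, 7.20 and 7.93 with heme and 7.35, 7.08 and 6.02 with vehicle. Among the same genes the most negative differences were those of Acod1 (-2.39), Ifi27l2a (-2.18), Ccl17 (-2.18) and Slamf7 (-2.16). The stefins Stfa3 and Stfa2, under 5.37 at 72 h, are not ranked. The difference rests on 4 arrays and 4 group values, which leave 0 residual degrees of freedom.

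Where the genes past 2-fold with heme stood against vehicle was counted at both times. Of the 105 higher genes, 54 were within 0.5 of vehicle at 24 h and 50 at 72 h; 7 were at least 1 above vehicle at 24 h and 21 at 72 h, and 13 were at least 1 below it at 24 h and 2 at 72 h. Of the 109 lower genes, 52 were within 0.5 of vehicle at 24 h and 59 at 72 h, and 29 were at least 1 above vehicle at 24 h and 12 at 72 h, and 5 were at least 1 below it at 24 h and 16 at 72 h. In 8 of the higher and 12 of the lower genes a gap of at least 1 at 24 h was under 0.5 at 72 h; Apoe and Ccl17 are such genes. These gaps use the heme arrays that chose the genes, so they describe the genes and test nothing.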

How the data were processed

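The study measured RNA of adherent cells on 6 one-colour arrays, 1 for each of 2 treatments at 3 times. The authors deposited log2 expression values after RMA with quantile normalization, per the labels and the submitters' processing notes; for the software, ArrayStar, no version, and for the annotation no build is given in the sources used here. Quantile normalization gives all arrays nearly the same distribution, so a shift of total RNA cannot be seen. Arrays carry no count depth; that there is 1 per group limits the precision.

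Of 35556 probe sets, 21789 name 1 gene in the platform annotation, 1621 name several and 12146 are not listed; 21701 of the first matched a current symbol, and 2 symbols were updated. The brightest on average across all 6 arrays stood for each gene, and 11516 of 19936 genes with a highest level of at least 5.37, the median of the table, were kept. A level under 5.37 is not taken as above background, and a difference from it is given as a bound against 5.37. Differences of log2 levels were taken without a test, and genes past 2-fold were counted.

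Named genes are the 12 highest and 12 lowest heme changes, the 8 highest and lowest differences from vehicle, the 6 largest bounds each way, the 5 highest and lowest vehicle changes, up to 4 members of each of 47 gene lists and 10 genes fixed by name, 1 of which is not reported here; predicted genes and small RNAs are counted, not named. The members and lists were chosen with earlier results of these data known. Alternatives were another normalization (limma 3.58.1 in R 4.3.3), centring, level filter, probe set rule, treatment of dim levels and fold threshold. The scripts, in Python 3.11.15 with pandas 2.3.3, were tested on simulated data.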

Additional observations from a re-analysis of the deposited data

Results flagged for a closer look

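In 7 genes at or above 5.37 on all 4 arrays, heme and vehicle changed in opposite directions by at least 1.5-fold each. The difference was not tested, since each group is 1 array. The heme change minus the vehicle change was 2.70 for Marco, a scavenger receptor, and 1.79 for F13a1, a coagulation factor subunit. It was -2.16 for Slamf7, a leukocyte receptor, -1.86 for Ccl5, a chemokine, -1.64 for Smpdl3b, a lipid phosphodiesterase, -1.36 for Met, the receptor of hepatocyte growth factor, and -1.24 for Nfkbie, an inhibitor of NF-kB.

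Probe sets without a listed gene, which no comparison above uses, gave a signal with heme. With heme 529 of 6176 such probe sets (8.57%) were at least 2-fold higher at 72 h and 158 (2.56%) lower. With vehicle 255 (4.13%) were higher and 157 (2.54%) lower. Of probe sets naming 1 gene, 1.01% were higher and 0.93% lower with heme, and 0.63% and 0.70% with vehicle. From 6 to 24 h, 105 of the probe sets without a listed gene were higher and 722 lower with heme, and 264 and 119 with vehicle. Their median level was lowest on the heme 24 h array, at 4.83, and lay between 4.86 and 5.10 on the other arrays. Probe sets that name several genes gave 113 higher (9.95%) and 19 lower (1.67%) of 1136 with heme, and 85 (7.48%) and 5 (0.44%) with vehicle.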

How the results depend on the processing

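Of the counts of genes past 2-fold, 44 alternatives stayed within 1.5 times the reported count, and 24 did not. Genes higher with heme (105) numbered 66 with a level filter at the 75th percentile, 64 with an offset of 16 on the linear scale, 432 at 1.5-fold and 9 at 4-fold; genes lower with heme (109) numbered 476 at 1.5-fold and 14 at 4-fold. With the heme 6 h array in place of heme 24 h, an alternative chosen after seeing the data, 387 genes were higher and 307 lower. Genes higher with vehicle (59) numbered 38 with the 75th percentile filter, 32 with the offset, 261 at 1.5-fold and 3 at 4-fold; genes lower with vehicle (84) numbered 44 with the offset, 336 at 1.5-fold and 10 at 4-fold. Positive differences from vehicle (92) numbered 51 with the 75th percentile filter, 49 with the offset, 761 at 1.5-fold and 7 at 4-fold, and negative ones (85) numbered 133 with no filter, 53 with the 75th percentile filter, 45 with the offset, 537 at 1.5-fold and 8 at 4-fold. A stricter filter or threshold tests fewer genes or asks for more, and an offset shrinks changes of dim genes by construction. Centring each array on probe sets of 1 gene was also chosen after seeing the data.

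Of 73 named genes past 2-fold with heme, none changed sign under any normalization, centring, filter, probe set rule or dim level alternative. Bank1 fell under 2-fold after a second quantile normalization, Top2a with the mean of probe sets, Gja1, Has2, Nr4a3, Retnla and Serping1 with dim levels set to 5.37, and Bank1, Hpgds and Slamf7 with the offset. In the 42 lists with at least 5 kept genes no heme median of at least 0.25 in size changed sign, 317 medians under an alternative were within 1.5 times the reported one and 61 were not; the other 5 lists were not run. No paired analysis was possible because each group holds 1 array and the labels carry no replicate numbers. Signal near 5.37 limits 29 of the genes higher with heme, which were under it at 24 h, and 29 of those lower, which were under it at 72 h.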

Other observations

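The gene families here were chosen after their values were seen. Of 7 kept genes of the Ms4a family of membrane proteins, 5 were at least 2-fold higher from 24 to 72 h with heme and 0 with vehicle, against 0.912% and 0.512% of all genes, and the median was 1.09 with heme and -0.02 with vehicle. Ms4a7 measured 7.18, 8.17 and 9.18 with heme and 6.95, 9.02 and 9.16 with vehicle at 6, 24 and 72 h, and Ms4a6c 7.72, 7.74 and 9.05 with heme and 7.32, 8.74 and 8.72 with vehicle. In both the vehicle level at 24 h was already near its 72 h value. Of 7 kept Clec4 lectins, 1 was at least 2-fold higher and 1 lower with heme, against 0.912% and 0.947% of all genes. With heme 5 were positive and 2 negative, and the median was 0.10 with heme and 0.12 with vehicle. Of 26 kept histone genes, 6 were at least 2-fold lower with heme and 2 with vehicle, against 0.947% and 0.729% of all genes. In each culture 21 were negative. H2bc14, an H2B gene, measured 9.12, 9.10 and 7.79 with heme and 9.76, 8.70 and 8.34 with vehicle.

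Small nucleolar RNAs guide chemical modification of ribosomal RNA. Of 37 kept, 6 were at least 2-fold higher with heme and 0 with vehicle, against 0.912% and 0.512% of all genes. The median was 0.41 with heme and -0.05 with vehicle. The heme 24 h array was also the lowest for probe sets without a listed gene. The part of that array in the result was not tested.

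4 further genes past 2-fold with heme, likewise chosen after their values were seen, had distinct courses. Clec4a1, a C-type lectin, measured 6.55, 7.68 and 9.33 with heme and 5.89, 5.86 and 6.44 with vehicle, and was higher with heme at each time. Aif1, an actin-binding protein of macrophages, measured 7.52, 7.33 and 8.81 with heme and 7.54, 7.42 and 7.20 with vehicle, with 1 high array. Gpr84, a receptor for fatty acids, measured 7.78, 7.89 and 6.26 with heme and 5.61, 4.89 and 5.37 with vehicle, so the heme levels at 6 and 24 h were the high ones. Dhrs3, a retinaldehyde reductase, measured 8.43, 9.77 and 11.03 with heme and 10.35, 11.20 and 11.42 with vehicle, with heme below vehicle at each time and nearest at 72 h.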
